A study of Mus musculus with 19 samples.

Results

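Iron oxide nanoparticles and a pulsed magnetic field were given together, as the treatment called c-MSST, to saline mice that had not received MK-801, and RNA from their left prelimbic cortex was compared with that of saline mice without c-MSST. The comparison took the 5 libraries titled Control+c-MSST and the 6 titled Control, 11 of the 19 libraries of the series. Per the labels' protocols, the Control regimen was saline by daily intraperitoneal injection for 2 weeks with behavioural tests after it. The c-MSST mice had 1 stereotactic injection of Ferumoxytol, a nanoparticle of γ-Fe2O3, into the left prelimbic cortex, and moved freely under a pulsed magnetic field once awake. The series' design text gives the time of tissue collection as day 3 after surgery and counts 6 and 5 mice in these groups. The other 8 libraries, from mice given the NMDA receptor blocker MK-801 at 0.2 mg/kg daily for 2 weeks, form the groups SCZ (4 libraries) and SCZ+c-MSST (4 libraries). The labels give no strain, sex or age, and they do not say whether Control mice had surgery. They name no group with particles alone or the field alone, so effects of surgery, injected iron and magnetic field cannot be told apart here.

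The prelimbic cortex is a part of the medial prefrontal cortex of rodents, built of layered excitatory neurons, inhibitory interneurons, glia and vessels. Injected iron oxide particles are taken up by phagocytes and other cells, where the iron is stored in ferritin or exported by ferroportin, and free iron can induce antioxidant genes. A tissue injury from a needle commonly brings reactive astrocytes, activated microglia and cytokines, and neuronal stimulation brings immediate early genes such as Fos and Arc within the first hours. The nuclear alarmin interleukin 33 is released from damaged glia, and the chemokine CXCL12 guides migrating cells through its receptors CXCR4 and ACKR3.

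The 11 libraries held 50140626 to 72866386 counts each. The totals averaged 67431734 ± 4411539 (SD, n = 5) with c-MSST and 61081467 ± 6534894 (SD, n = 6) in Control, a difference that an exact permutation test, two-sided, did not separate from the spread between mice (p = 0.0866, adjusted p = 0.173 over 2 measures). At these depths 3 counts, the upper limit that a count of 0 allows for counting error only, corresponded to 0.0412 to 0.0598 CPM, which are counts scaled to a common library size. No pair of libraries held identical values. The cortical label was borne out by its markers, with Slc17a7, the vesicular glutamate transporter of cortical excitatory neurons, at 1049 ± 106 CPM (SD, n = 6) in Control and 1317 ± 114 CPM (SD, n = 5) with c-MSST. Markers of neighbouring structures differed between libraries of both groups. The summed level of 14 markers of striatal projection neurons ran from 459 to 3183 CPM in Control and 595 to 2677 CPM in Control+c-MSST. The 16 markers of choroid plexus and ependyma had summed levels of 16.99 to 1916 CPM in Control and 14.97 to 24.1 CPM in Control+c-MSST, and the highest values were those of Control replicates 2 and 3, where Ttr, the choroid plexus transthyretin, stood at 1607 and 149.6 CPM. All values below are TMM-scaled CPM, which compare libraries for 1 gene and not levels between genes, and in bulk tissue fewer cells of a type and less RNA per cell cannot be told apart.

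Few genes passed the threshold with c-MSST, and most of their differences were small. Of 16417 genes tested with edgeR's quasi-likelihood test, 54 passed an adjusted p of 0.05 (0.329%), of which 38 were higher (0.231%) and 16 lower (0.0975%) in Control+c-MSST. In the same fit 382 genes had an adjusted p under 0.1. At an unadjusted p under 0.05 there were 2718 (16.6%), 1290 higher and 1428 lower. The interleukin Il33 had the smallest p and fell, while the secreted proteins Ccdc80 and Ccdc3, the chemokine Cxcl12 and the synaptic vesicle gene Svop rose. The median size of the 54 differences was 0.35 on the log2 scale, and 43 of the 54 were under 0.5. In 44 of the 54 the libraries of the 2 groups did not overlap (30 higher, 14 lower), against 263 of all genes tested (1.6%), of which 139 were higher (0.847%) and 124 lower (0.755%). The 10 called genes whose groups overlapped were Gatm, Kif26a, Fam171a2, Rasl10a, Hrk, Smoc2, Ankub1, Dysf, Igsf21 and Nrxn2. The direction split depended on the fit. DESeq2 on the same counts called 279 genes higher and 292 lower, and without Control replicate 7 edgeR called 172 higher and 142 lower. In contrast, limma on the deposited FPKM values called 240 to 259 genes of which 96.4% to 98.3% were higher, against 70.4% of the 54.

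**Figure D1:**
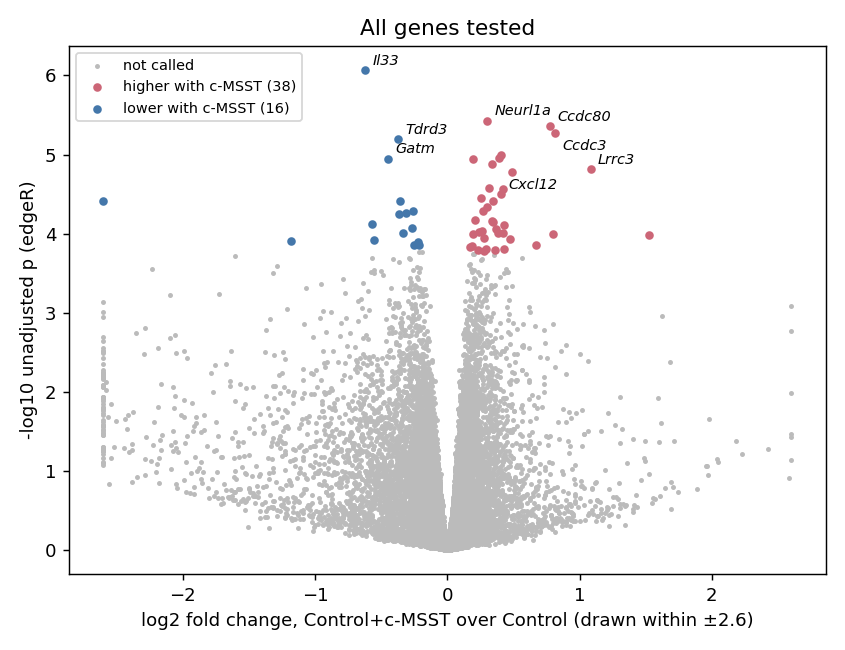
Each point is 1 of the 16417 genes tested, with its log2 fold change of Control+c-MSST over Control on the x axis and -log10 of its unadjusted p (edgeR) on the y axis. The 38 red points (higher) and 16 blue points (lower) passed an adjusted p of 0.05, and most lie close to the centre line, with a median size of 0.35.

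The number of calls rested on particular libraries. Leaving out Control+c-MSST replicate 6 left 0 calls (2045 genes at an unadjusted p under 0.05, smallest adjusted p 0.0662), and leaving out replicates 4 or 7 of that group left 3 or 4. Without replicate 1 there were 127 calls. Among Control libraries, the count was 7 without replicate 2, 35 without replicate 3, 18 without replicate 4, 31 without replicate 5 and 314 without replicate 7. A fit to only these 11 libraries, which takes the spread between mice from these groups alone, called 0 genes with edgeR (1931 at an unadjusted p under 0.05, smallest adjusted p 0.188). DESeq2 on the 19 libraries called 571 genes, including 53 of the 54, and limma voom called 25, all among the 54. The sign of each of the 54 was the same in every setting in which the gene was tested. Since the 54 were called in these same libraries, and each setting reused all or most of them, this is no test of their direction.

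**Figure D2:**
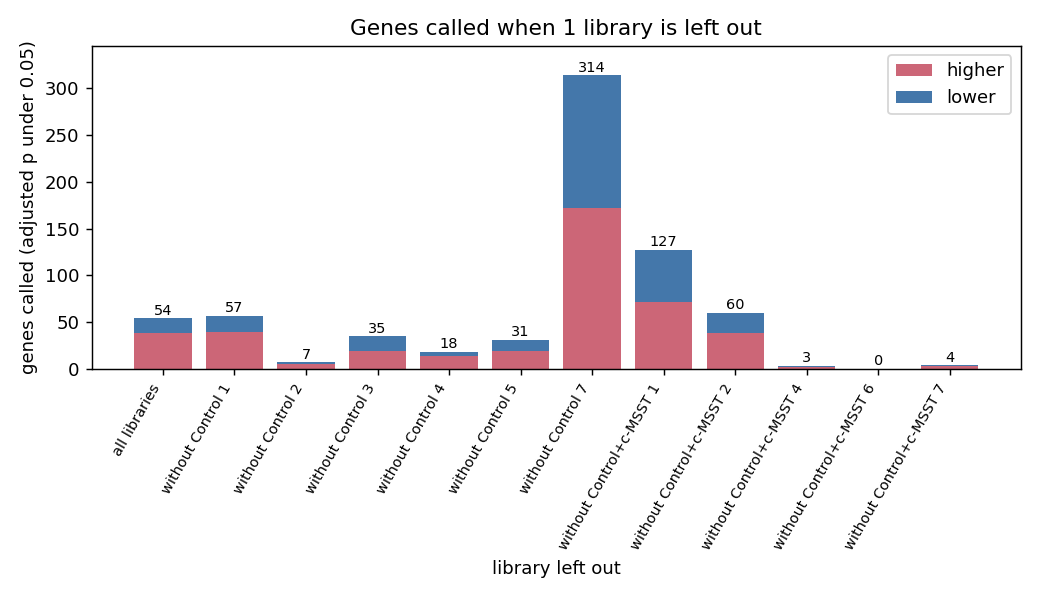
Bars give the number of genes called at an adjusted p under 0.05 (edgeR), stacked as higher (red) and lower (blue), with all libraries and with each of the 11 libraries of the comparison left out in turn. The count is 54 with all libraries, 0 without Control+c-MSST replicate 6 and 314 without Control replicate 7.

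Among cytokines and chemokines, Il33 fell and Cxcl12 rose. Il33 (chr19:29925114-29960718, plus strand, in GRCm38 with the GENCODE vM21 annotation, as for all positions here), the alarmin of the interleukin 1 family, lay at 21.6 to 27.6 CPM (median 24.1) in the 6 Control libraries. In Control+c-MSST replicates 1, 2, 4, 6 and 7, always given in this order below, it lay at 18.02, 16.6, 13.97, 13.3 and 16.4 CPM. All 5 treated libraries were below the lowest Control library (log2 fold change -0.62, SE 0.09, adjusted p = 0.0140). Cxcl12 (chr6:117168535-117181367, plus strand) lay at 42.2 to 55.6 CPM (median 50.3) in Control and at 57.6, 63.7, 66.9, 67.5 and 70.7 CPM with c-MSST. Its lowest treated library, replicate 1, was just above the highest Control library (log2 fold change 0.41, SE 0.07, adjusted p = 0.0335). Without Control+c-MSST replicate 6 the values were -0.57 for Il33 (adjusted p = 0.0662) and 0.39 for Cxcl12 (adjusted p = 0.11), close in size but no longer under the threshold.

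No other of the 16 tested cytokine and chemokine genes was called, and the list's median was -0.07 against -0.01 over all genes, a sign that turned with 2 of 3 fits to FPKM, where the median of all genes lay above 0, while without replicate 6 of the treated group 8 members lay higher and 8 lower. Il6, Ccl4 and Cxcl2 had no count in any Control library, and of these Ccl4 alone also had none in any Control+c-MSST library. Of 10 genes for the receptors and signalling of these ligands, none was called. The nearest was Ackr3, the scavenging CXCL12 receptor, at 8.09 ± 1.67 CPM (SD, n = 6) in Control and 11.04 ± 0.780 CPM (SD, n = 5) with c-MSST (log2 fold change 0.45, SE 0.11, adjusted p = 0.0766). It passed when Control replicates 2 and 3 were left out together (log2 fold change 0.62, adjusted p = 0.00977). Il1rap, the co-receptor of interleukin 33, stood at 75.6 ± 13.9 and 63.9 ± 4.89 CPM (log2 fold change -0.24, SE 0.10, adjusted p = 0.240).

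Genes for secreted or matrix proteins were among those that rose most in size. Ccdc80 (chr16:45093402-45128077, plus strand), a secreted protein that binds extracellular matrix, lay at 5.56 to 7.604 CPM (median 7.39) in Control and at 11.3, 14.4, 9.92, 13.9 and 11.1 CPM with c-MSST (log2 fold change 0.78, SE 0.12, adjusted p = 0.0210). Ccdc3 (chr2:5137776-5230878, plus strand), a secreted protein known from adipocytes and endothelium, lay at 10.9 to 16.3 CPM (median 13.5) in Control. It reached 19.96, 19.5, 25.9, 31.9 and 21.5 CPM in the treated libraries (log2 fold change 0.81, SE 0.13, adjusted p = 0.0210). For both genes every treated library exceeded every Control library. Smoc2, a calcium-binding matrix protein, rose from 16.3 ± 2.800 CPM (SD, n = 6) to 28.4 ± 8.11 CPM (SD, n = 5), with overlapping groups (log2 fold change 0.80, SE 0.16, adjusted p = 0.0439).

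**Figure D3:**
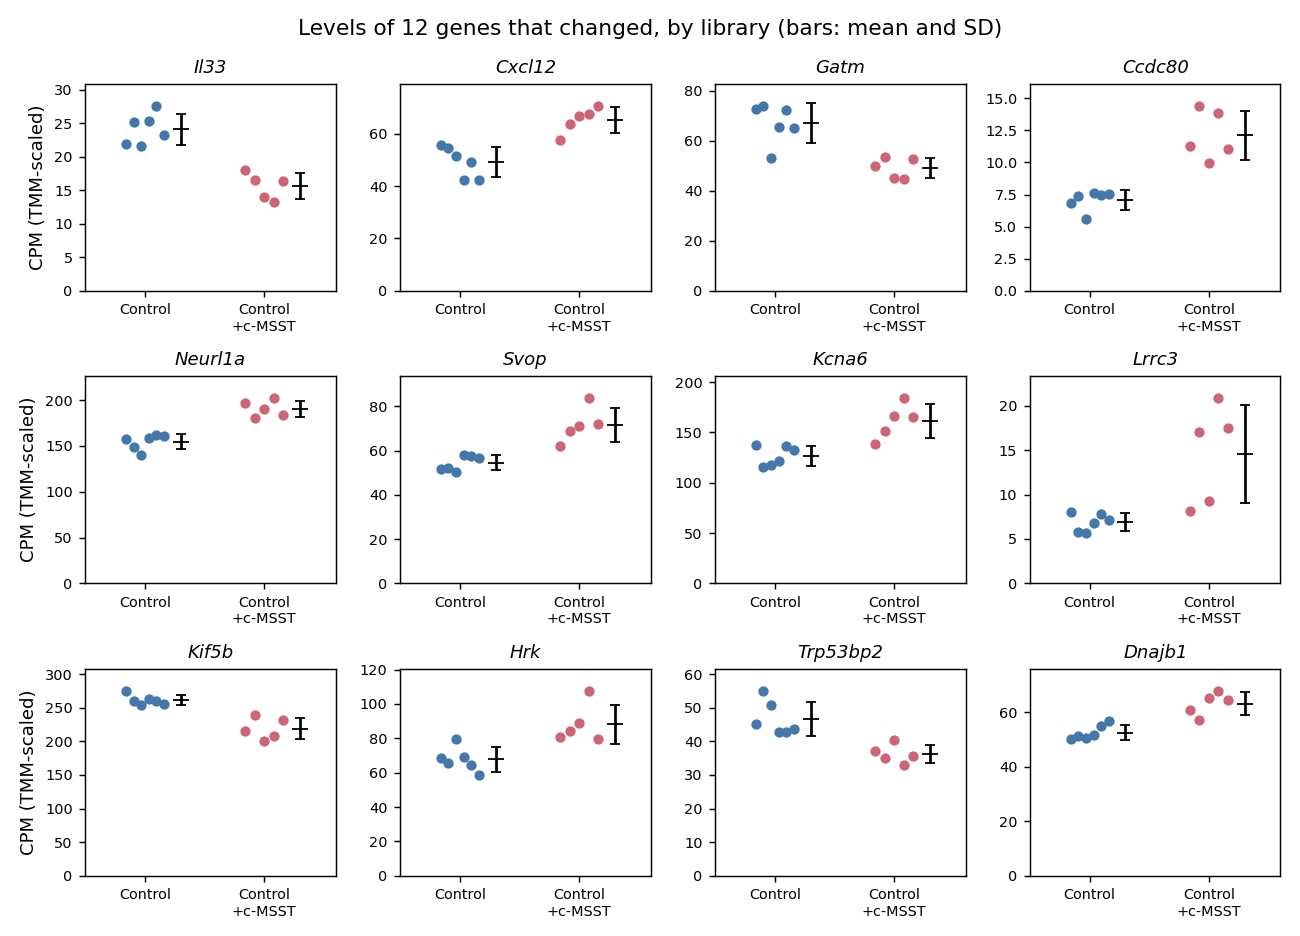
Points give the TMM-scaled CPM of 12 called genes in each of the 6 Control (blue) and 5 Control+c-MSST (red) libraries, with bars for the mean and SD of each group and each y axis starting at 0. Il33, Gatm, Kif5b and Trp53bp2 lie lower with c-MSST and the other 8 genes higher, and the groups overlap for Gatm and Hrk.

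Some of the genes that rose encode proteins found at synapses, in vesicles or in the secretory route. This and the other groupings of called genes below that name no fixed list were made by hand after the calls were known, and were not tested. Neurl1a (chr19:47178820-47259441, plus strand), a ubiquitin ligase of the Neuralized family present in dendrites, lay at 140.3 to 162 CPM (median 158) in Control and at 197, 181, 191, 202 and 184 CPM with c-MSST. All 5 treated libraries lay above all 6 Control libraries (log2 fold change 0.30, SE 0.05, adjusted p = 0.0210). Svop (chr5:114026910-114091570, minus strand), a transporter-like protein of synaptic vesicles, lay at 50.6 to 58.1 CPM (median 54.5) in Control and at 62.1, 68.8, 71.1, 83.7 and 71.9 CPM with c-MSST (log2 fold change 0.39, SE 0.07, adjusted p = 0.0211). Rab26 (chr17:24527241-24534210, minus strand), a small GTPase of secretory and synaptic vesicles, lay at 23.6 to 27.4 CPM (median 25.4) in Control and at 29.7, 34.2, 31.3, 34.8 and 30.9 CPM with c-MSST (log2 fold change 0.34, SE 0.06, adjusted p = 0.0214). Replicate 6 was the highest treated library for Svop, and neither gene's groups overlapped. The adhesion receptor Adgrl1 (latrophilin 1) rose from 915 ± 129 to 1182 ± 46.5 CPM (log2 fold change 0.37, SE 0.07, adjusted p = 0.0439), and Nrxn2, the presynaptic adhesion protein neurexin 2, from 393 ± 28.96 to 462 ± 25.1 CPM (log2 fold change 0.24, SE 0.05, adjusted p = 0.0496). Igsf21, an immunoglobulin-domain protein known to bind neurexin 2 at inhibitory synapses, rose by 0.43 on the log2 scale (SE 0.09, adjusted p = 0.0496). Ptprf, the receptor phosphatase LAR of synapse formation, had 0.34 (SE 0.07, adjusted p = 0.0431). Hid1, needed for the loading of dense-core vesicles, and Arf3, a small GTPase of the Golgi, both had 0.19, the smallest among these genes (adjusted p = 0.0489 and 0.0439).

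The wider synaptic lists held no called gene. Among 22 presynaptic vesicle and release genes, 17 lay higher and 5 lower, where 47.1% of all genes lay higher. Of the 17, 11 were so at an unadjusted p under 0.05 against 7.86% of all genes, and the list of 22 had a median of 0.10. The groups overlapped, with summed levels of 16800 to 21310 CPM in Control and 19100 to 20510 CPM with c-MSST. The list's mean log2 CPM relative to the Control mean was 0.169 and 0.181 in Control replicates 1 and 7. In the treated libraries it was 0.053 to 0.156. The members with the smallest p were Sv2b, a synaptic vesicle glycoprotein, at 719.7 ± 112 and 951 ± 83.8 CPM (log2 fold change 0.40, SE 0.09, adjusted p = 0.0619), and Slc17a7 (log2 fold change 0.33, SE 0.08, adjusted p = 0.0652). Of 23 postsynaptic scaffold genes, 18 lay higher and 5 lower, with a median of 0.10 and Nlgn2, the adhesion protein of inhibitory synapses, nearest to the threshold (log2 fold change 0.18, SE 0.05, adjusted p = 0.0831). Their summed levels overlapped too, at 13030 to 16330 CPM in Control and 14860 to 16360 CPM with c-MSST. With the scores of choroid plexus, striatal and septal markers as covariates the 2 medians were 0.01 and 0.02. Markers of cortical excitatory neurons, which make many of these proteins, were split, with 4 of 8 members higher and 4 lower and none called. Slc30a3, the vesicular zinc transporter, stood at 86.02 ± 16.7 and 117 ± 9.63 CPM (log2 fold change 0.44, SE 0.10, adjusted p = 0.0652). The part of this marker list in the synaptic genes was not tested.

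The potassium channel genes Kcna6 and Kcnf1 rose. Kcna6, which encodes Kv1.6, rose from 127 ± 9.94 CPM (SD, n = 6) to 161 ± 16.98 CPM (SD, n = 5) (log2 fold change 0.34, SE 0.06, adjusted p = 0.0335). Kcnf1, the electrically silent subunit Kv5.1 that modifies other channels, rose from 145 ± 14.1 to 187 ± 18.95 CPM (log2 fold change 0.36, SE 0.08, adjusted p = 0.0496). The groups did not overlap for either. Of 31 other voltage-gated sodium, calcium, potassium and pacemaker channel genes none was called, with 20 of 31 members higher and 11 lower and a median of 0.07, and the smallest p were those of the calcium channel genes Cacna1b (log2 fold change 0.15, adjusted p = 0.135) and Cacna1g (log2 fold change 0.30, adjusted p = 0.181). Of 18 ionotropic glutamate receptor genes none was called, and Gria2, an AMPA receptor subunit, stood at 823 ± 48.8 and 761 ± 19.2 CPM (log2 fold change -0.11, SE 0.04, adjusted p = 0.155). Grik5, a kainate receptor subunit, was the next by p (log2 fold change 0.12, adjusted p = 0.157). Of 16 tested GABA-A receptor subunits none was called, with 7 higher and 9 lower and a median of -0.07 that changed sign with FPKM values and without Control replicate 2. Gabrb2 was the nearest and did not overlap between groups (log2 fold change 0.26, SE 0.08, adjusted p = 0.114). Gabrq, the theta subunit, came next (log2 fold change -0.99, adjusted p = 0.280), and Gabre, the epsilon subunit, held 0 to 22 counts in every library of both groups.

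Genes of the kinesin and myosin families were called in both directions. Kif5b, the ubiquitous heavy chain of kinesin 1, lay at 255 to 275 CPM (median 260.4) in Control and at 215, 238, 200.1, 208 and 232 CPM with c-MSST, all treated libraries below all Control libraries (log2 fold change -0.26, SE 0.05, adjusted p = 0.0386). Kif26a (chr12:112146208-112181747, plus strand), an unconventional kinesin without motor activity that acts in neuronal development, lay at 9.53 to 12.3 CPM (median 10.1) in Control. Its treated values were 13.9, 12.3, 16.2, 16.2 and 14.5 CPM, overlapping with Control (log2 fold change 0.49, SE 0.08, adjusted p = 0.0225). These 2 were the only called members of 20 kinesin and kinesin light chain genes, of which 9 lay higher and 11 lower. At an unadjusted p under 0.05 there were 10 of the 20, 4 higher and 6 lower, against 16.6% of all genes. The list's median of -0.02 turned positive with FPKM values. Myo6 (chr9:80165031-80311729, plus strand), the myosin that walks to the minus end of actin in endocytosis, lay at 150.1 to 182 CPM (median 164) in Control and at 146, 142, 131, 118 and 131 CPM with c-MSST (log2 fold change -0.31, SE 0.06, adjusted p = 0.0386). Ttc8 (chr12:98920574-98983238, plus strand), a subunit of the BBSome of primary cilia, lay at 25.6 to 28.2 CPM (median 27.2) and 22.2, 24.3, 22.7, 24.1 and 22.96 CPM (log2 fold change -0.22, SE 0.05, adjusted p = 0.0479). Neither overlapped between groups.

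Genes tied to cell death and p53 were also called in both directions. Trp53i11 (chr2:93187548-93201759, plus strand), named for its induction by p53, lay at 55.2 to 67.98 CPM (median 60.6) in Control and at 82.2, 68.3, 82.3, 88.6 and 82.04 CPM with c-MSST, without overlap (log2 fold change 0.41, SE 0.07, adjusted p = 0.0211). Zmat3, an RNA-binding target of p53, rose from 182 ± 11.1 to 215 ± 12.2 CPM (log2 fold change 0.24, SE 0.05, adjusted p = 0.0439), and Hrk, the neuronal BH3-only death protein Harakiri, from 67.6 ± 7.07 to 88.2 ± 11.4 CPM with overlapping groups (log2 fold change 0.38, SE 0.08, adjusted p = 0.0439). Trp53bp2 (chr1:182409172-182462432, plus strand), which encodes the p53-binding protein ASPP2, fell, and lay at 42.7 to 55.03 CPM (median 44.3) in Control and at 37.04, 35.1, 40.5, 32.9 and 35.6 CPM with c-MSST (log2 fold change -0.36, SE 0.07, adjusted p = 0.0389). Anxa5 (chr3:36448923-36475894, minus strand), the phosphatidylserine-binding annexin, fell, and lay at 31.2 to 36.3 CPM (median 33.5) in Control and at 29.1, 28.8, 24.2, 22.2 and 26.9 CPM with c-MSST (log2 fold change -0.36, SE 0.07, adjusted p = 0.0335). For both genes no treated library reached the Control range. Zmat3 was the only called gene of 14 p53 and DNA damage genes, with 8 of 14 members higher and 6 lower and a median of 0.05.

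Some called genes act in protein handling. Dnajb1, an Hsp40 co-chaperone, rose from 52.6 ± 2.62 CPM (SD, n = 6) to 63.1 ± 4.21 CPM (SD, n = 5) without overlap (log2 fold change 0.26, SE 0.05, adjusted p = 0.0439). It was the only called member of 21 heat shock genes, of which 5 lay higher and 16 lower, with a median of -0.04 that turned to 0.04 with FPKM values. Hspa1a, the inducible Hsp70, stood at 11.1 ± 2.198 and 10.95 ± 1.32 CPM (log2 fold change -0.02, SE 0.15, adjusted p = 0.967). Uchl1, an abundant neuronal deubiquitinase, rose from 261 ± 20.1 to 321 ± 26.8 CPM (log2 fold change 0.30, SE 0.06, adjusted p = 0.0374). Ubxn1 (chr19:8871496-8875863, plus strand), a cofactor of the p97 ATPase, fell, and lay at 42.2 to 51.5 CPM (median 44.8) in Control and at 40.1, 39.5, 34.5, 36.4 and 38.4 CPM with c-MSST (log2 fold change -0.27, SE 0.05, adjusted p = 0.0439). Litaf (chr16:10959275-11066157, minus strand), an endosomal and lysosomal membrane protein, fell, and lay at 10.9 to 15.1 CPM (median 11.9) in Control and at 8.64, 9.800, 7.06, 7.23 and 8.87 CPM with c-MSST (log2 fold change -0.57, SE 0.11, adjusted p = 0.0439). Gramd4, a GRAM-domain protein linked to cell death, rose by a log2 fold change of 0.27 (adjusted p = 0.0386). The groups of Uchl1, Ubxn1, Litaf and Gramd4 did not overlap.

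Other calls encode regulators of RNA and chromatin. Tdrd3 (chr14:87416639-87545504, plus strand), a Tudor-domain scaffold of topoisomerase 3β, lay at 31.98 to 41.9 CPM (median 38.2) in Control and at 28.6, 30.7, 29.4, 28.5 and 27.7 CPM with c-MSST (log2 fold change -0.37, SE 0.06, adjusted p = 0.0210). Cwc22 (chr2:77881159-77946375, minus strand), a spliceosome protein, lay at 33.6 to 43.5 CPM (median 36.4) and 32.2, 29.6, 28.00, 28.4 and 28.6 CPM (log2 fold change -0.33, SE 0.07, adjusted p = 0.0439). Both fell without overlap, as did the splicing factor Hnrnpa1 (log2 fold change -0.21, SE 0.04, adjusted p = 0.0489). Dpf1, a subunit of the neuronal BAF chromatin remodeller, the chromodomain gene Cdyl2 and the nuclear import receptor Tnpo2 rose by 0.27, 0.48 and 0.17 on the log2 scale. Tdrd1, a Tudor-domain gene of the germline piRNA pathway, had the largest rise of the 38 but a low level, 0.589 ± 0.197 CPM in Control and 1.702 ± 0.863 CPM with c-MSST (log2 fold change 1.53, SE 0.31, adjusted p = 0.0443).

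In metabolism, Gatm (chr2:122594467-122611303, minus strand), the enzyme of the first step of creatine synthesis, fell. It lay at 52.98 to 74.04 CPM (median 69.1) in Control and at 49.8, 53.6, 45.1, 44.9 and 52.7 CPM with c-MSST, with the highest treated library, replicate 2, just above the lowest Control library (log2 fold change -0.45, SE 0.08, adjusted p = 0.0211). The other 4 genes of creatine synthesis, uptake and phosphorylation (Gamt, Slc6a8, Ckb and Ckmt1) were not called, 3 of them higher and 1 lower.

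The remaining calls encode membrane and signalling proteins, or proteins of little known function. Lrrc3 (chr10:77897575-77902536, minus strand), a leucine-rich repeat membrane protein, lay at 5.73 to 8.02 CPM (median 6.96) in Control. Its treated values were 8.17, 17.04, 9.33, 20.9 and 17.5 CPM, with replicates 1 and 4 close to Control and replicates 2, 6 and 7 far above it (log2 fold change 1.08, SE 0.19, adjusted p = 0.0225). Tmem132a (chr19:10857822-10869940, minus strand), a membrane protein of the early neural tube, lay at 204 to 247 CPM (median 216) in Control and at 252, 284, 315, 335 and 302 CPM with c-MSST (log2 fold change 0.42, SE 0.08, adjusted p = 0.0315). Tmem121b (chr6:120488939-120493807, minus strand) lay at 72.6 to 89.3 CPM (median 85.1) in Control and at 99.3, 99.1, 98.6, 113 and 102 CPM with c-MSST (log2 fold change 0.32, SE 0.06, adjusted p = 0.0315). In both, no Control library reached the treated range. Arhgdia (chr11:120578104-120581624, minus strand), a GDP dissociation inhibitor of small GTPases, lay at 195 to 214 CPM (median 203) in Control and at 239.8, 232, 232, 229.7 and 230.0 CPM with c-MSST, without overlap (log2 fold change 0.19, SE 0.03, adjusted p = 0.0211). Rises on the log2 scale were found for 7 more that are reported here, namely Tmem94 at 0.25, Tmem64 at 0.28, Mfsd5 at 0.29, Fam171a2 at 0.34, the Ras-like GTPase Rasl10a at 0.42, Ttc9b at 0.43 and the membrane repair protein Dysf at 0.67.

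The last 4 calls were lower. Ankub1 (chr3:57657393-57692799, minus strand), an ankyrin repeat gene, was low throughout, at 1.08 to 2.497 CPM (median 1.68) in Control and 1.09, 0.771, 0.784, 0.755 and 0.450 CPM with c-MSST, with overlap (log2 fold change -1.18, SE 0.25, adjusted p = 0.0466). The predicted genes Gm973 and Gm14326 fell by 0.56 and 0.25 on the log2 scale. Klf1, the transcription factor of red blood cell precursors, was the only call under 1 CPM. It held 9, 32, 30, 19, 4 and 9 counts in the 6 Control libraries and 2, 0, 0, 0 and 0 with c-MSST, that is 2 against 103 counts in all, or a ratio of 0.0211 after scaling by the summed library totals (95% exact interval 0.00252 to 0.0782, counting error only). Blood markers did not follow one direction, with 2 of 9 members higher and 7 lower and Hba-a1, a haemoglobin gene with near-identical copies, at 70.74 CPM in Control+c-MSST replicate 7 and at most 0.0275 CPM in the other treated libraries. Its copy Hba-a2 had a log2 fold change of 0.90 (adjusted p = 0.583). The part of blood in the value of Klf1 was not tested. Of the 54 genes, 18 have exons that overlap a gene on the other strand and 4 on the same strand (Neurl1a, Rab26, Cwc22 and Tnpo2). Since the sources used here do not say if reads were counted by strand, these are less certain.

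The 54 differences were not spread evenly over the treated mice. Taken in the direction of each call and relative to the Control mean, the median log2 deviation of the 54 genes was 0.26 in replicate 1, 0.269 in replicate 2, 0.384 in replicate 4, 0.489 in replicate 6 and 0.354 in replicate 7. In Control it ran from -0.068 in replicate 2 to 0.07 in replicate 7. Replicate 6, the library without which no gene was called, also had the lowest myelin score of the 11 (-1.67). Its scores were the lowest as well for choroid plexus (-2.97), striatal (-2.13), septal (-1.25), meningeal (-0.86) and oligodendrocyte precursor (-0.55) markers, among other lists. They were the highest for microglia (0.37) and activated microglia (0.39). Among treated libraries it had the highest Cd68, the lysosomal protein of macrophages, at 10.4 CPM against at most 7.38 CPM in the other 4. Leaving it out gave a median of 0.303 for the 54 in place of 0.35. With the 3 tissue scores as covariates no gene was called by edgeR (2051 at an unadjusted p under 0.05, smallest adjusted p 0.0516), and the median was 0.272 with the signs of all 54 kept.

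The c-MSST effect in MK-801 mice, measured on 8 libraries outside the comparison in saline mice, which share with it only the model's estimate of spread, gave the same genes smaller values. The 54 genes were chosen by their test in saline mice, which favours large values there, so their sizes there are a description. Smaller sizes in MK-801 mice do not by themselves show a weaker effect. Between SCZ+c-MSST and SCZ, 48 of the 54 had the same sign, against 57.7% of all genes, and all 54 were smaller in size, with a median in the direction of the call of 0.08. No gene of the 16417 was called there by edgeR (1241 at an unadjusted p under 0.05, 7.56%), while DESeq2 called 62 and limma voom 46. Of the 54, 6 had the same sign at an unadjusted p under 0.05 in MK-801 mice, namely Il33 (-0.31), Gatm (-0.30), Tmem132a (0.19), Fam171a2 (0.19), Smoc2 (0.41) and Ankub1 (-0.70). Kif26a, Cxcl12, Myo6, Cwc22, Mfsd5 and Tmem64 had the opposite sign there, with Cxcl12 at -0.10 and an interaction of -0.51 (SE 0.12, adjusted p = 0.365). The difference between the effects in the 2 kinds of mice, tested as an interaction, was called for no gene by edgeR or limma voom (edgeR 1196 at an unadjusted p under 0.05, 7.29%) and for 40 by DESeq2. An effect confined to saline mice was therefore not shown by edgeR for any gene.

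**Figure D4:**
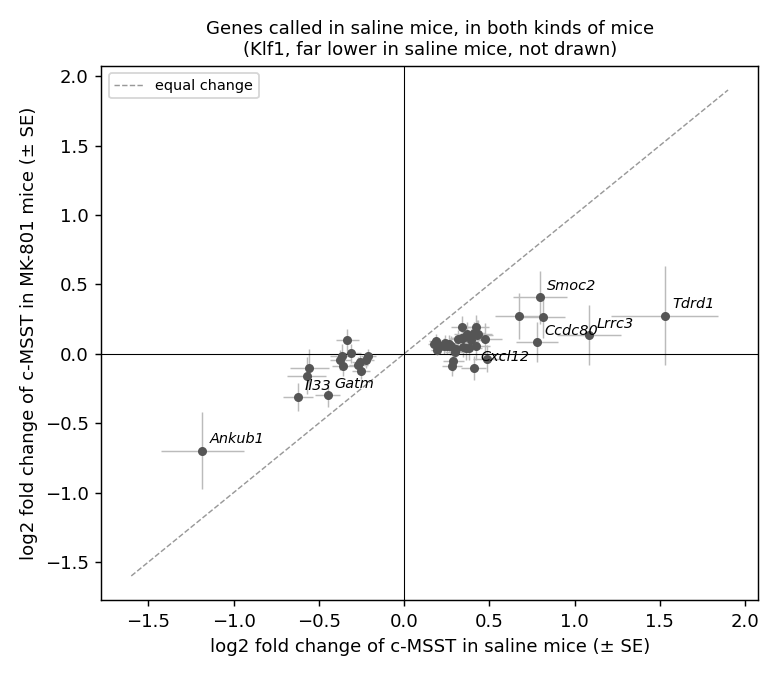
Each point is a called gene, with its log2 fold change of c-MSST in saline mice on the x axis and in MK-801 mice on the y axis, bars for the SE. The 2 axes share no library, 48 of the 54 genes have the same sign on both, and all 54 are smaller in MK-801 mice (Klf1, at -5.11 in saline mice, is not drawn). The genes were chosen by their test in saline mice, which favours large values on the x axis.

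The genes that handle iron showed no called change. Of 27 genes of iron storage and transport, 15 lay higher and 12 lower, with 7 at an unadjusted p under 0.05 (16.6% of all genes) and a median of 0.01. Fth1, the ferritin heavy chain that stores iron, stood at 647 to 928 CPM (median 823) in Control and at 706, 712, 699, 506 and 737 CPM with c-MSST. Replicate 6 was far below the rest, and the groups overlapped (log2 fold change -0.25, SE 0.09, adjusted p = 0.196). Ftl1, the ferritin light chain, stood at 85.2 ± 6.76 and 100.3 ± 21.4 CPM (log2 fold change 0.24, SE 0.09, adjusted p = 0.224). Without replicate 6 the values were -0.16 for Fth1 and 0.09 for Ftl1. The iron exporter Slc40a1 (ferroportin) stood at 7.68 ± 1.15 and 10.3 ± 2.61 CPM (log2 fold change 0.42, SE 0.15, adjusted p = 0.178), and the transferrin receptor Tfrc at 101 ± 18.3 and 96.6 ± 17.9 CPM (log2 fold change -0.07, SE 0.13, adjusted p = 0.842). Trf, transferrin, which in brain is made largely by oligodendrocytes, had the smallest p of the list (log2 fold change -0.60, SE 0.19, adjusted p = 0.129). Hmox1, the haem oxygenase that antioxidant signals induce, stood at 3.77 ± 0.710 and 4.35 ± 0.609 CPM (log2 fold change 0.21, SE 0.15, adjusted p = 0.513).

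Other stress lists held at most 1 called gene. Of 18 targets of Nrf2 and ferroptosis defence genes, 13 lay higher and 5 lower and none was called, with Chac1, a glutathione-degrading enzyme, nearest (log2 fold change 0.45, SE 0.10, adjusted p = 0.0582). Its groups did not overlap, at 4.14 ± 0.195 and 5.65 ± 0.379 CPM. Gclc, the catalytic subunit of glutathione synthesis, followed (log2 fold change -0.13, adjusted p = 0.231). In the unfolded protein and integrated stress response, 8 of 15 lay higher, and Dnajc3, an inhibitor of the kinase PERK, was nearest (log2 fold change -0.21, SE 0.05, adjusted p = 0.0582), before the co-chaperone Dnajb9 (log2 fold change -0.12, adjusted p = 0.274). The median of this list changed sign with limma voom. The hypoxia list had 10 of 13 members higher with none called. Ndrg1, a hypoxia-induced gene that is also abundant in oligodendrocytes, stood at 92.6 ± 10.8 and 66.1 ± 12.6 CPM (log2 fold change -0.49, SE 0.11, adjusted p = 0.0599), and Ldha, lactate dehydrogenase A, at 178 ± 18.7 and 206 ± 5.96 CPM (log2 fold change 0.21, SE 0.06, adjusted p = 0.114). Of 21 lysosome and endocytic uptake genes, 12 lay higher and 9 lower, and Ap2a1, an adaptor subunit of clathrin coats, was the nearest (log2 fold change 0.18, SE 0.04, adjusted p = 0.0582), passing in some of the other fits, before the proton pump subunit Atp6v0d1 (log2 fold change 0.18, adjusted p = 0.0833). Nuclear oxidative phosphorylation genes had a median of 0.0047 over 21 members, a sign that turned with limma voom, with Cox6c at -0.15 and Sdhb at 0.14, neither called.

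Genes of mechanical, activity and hormone responses were not called either. Of 19 mechanosensitive channel genes, 12 lay higher and 7 lower. The osmosensitive channel gene Tmem63a, which is expressed by oligodendrocytes, stood at 23.3 ± 4.42 and 15.4 ± 3.68 CPM (log2 fold change -0.60, SE 0.14, adjusted p = 0.0670), and its relative Tmem63c at 109 ± 5.84 and 123 ± 6.99 CPM (log2 fold change 0.17, SE 0.05, adjusted p = 0.111). Of 25 immediate early genes, 16 lay higher and 9 lower, with a median of 0.04 that was -0.01 without Control+c-MSST replicate 6 and 0.10 without Control replicate 2. Fos stood at 9.11 to 28.01 CPM (median 20.5) in Control and 28.4, 9.36, 16.9, 28.6 and 17.3 CPM with c-MSST, and Arc at 92.4 to 229 CPM (median 164) and 163, 85.3, 122, 194 and 187 CPM. Both genes varied more within each group than between the groups (Fos log2 fold change -0.02, SE 0.32, adjusted p = 0.984, Arc log2 fold change -0.08, SE 0.23, adjusted p = 0.906). Jund and Nptx2 had the smallest p of the list, with log2 fold changes of 0.13 and 0.34 (adjusted p = 0.222 and 0.251). Of 16 glucocorticoid-responsive genes, 4 lay higher and 12 lower with a median of -0.17, which was -0.08 without Control replicates 2 and 3. Its nearest members were Arrdc2 (log2 fold change -0.46, SE 0.17, adjusted p = 0.194) and the metallothionein Mt1 (log2 fold change -0.26, SE 0.11, adjusted p = 0.234). Of 17 clock genes, 13 lay higher and 4 lower, with Tef at 0.14 and Bhlhe40 at 0.26, neither called.

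**Figure D5:**
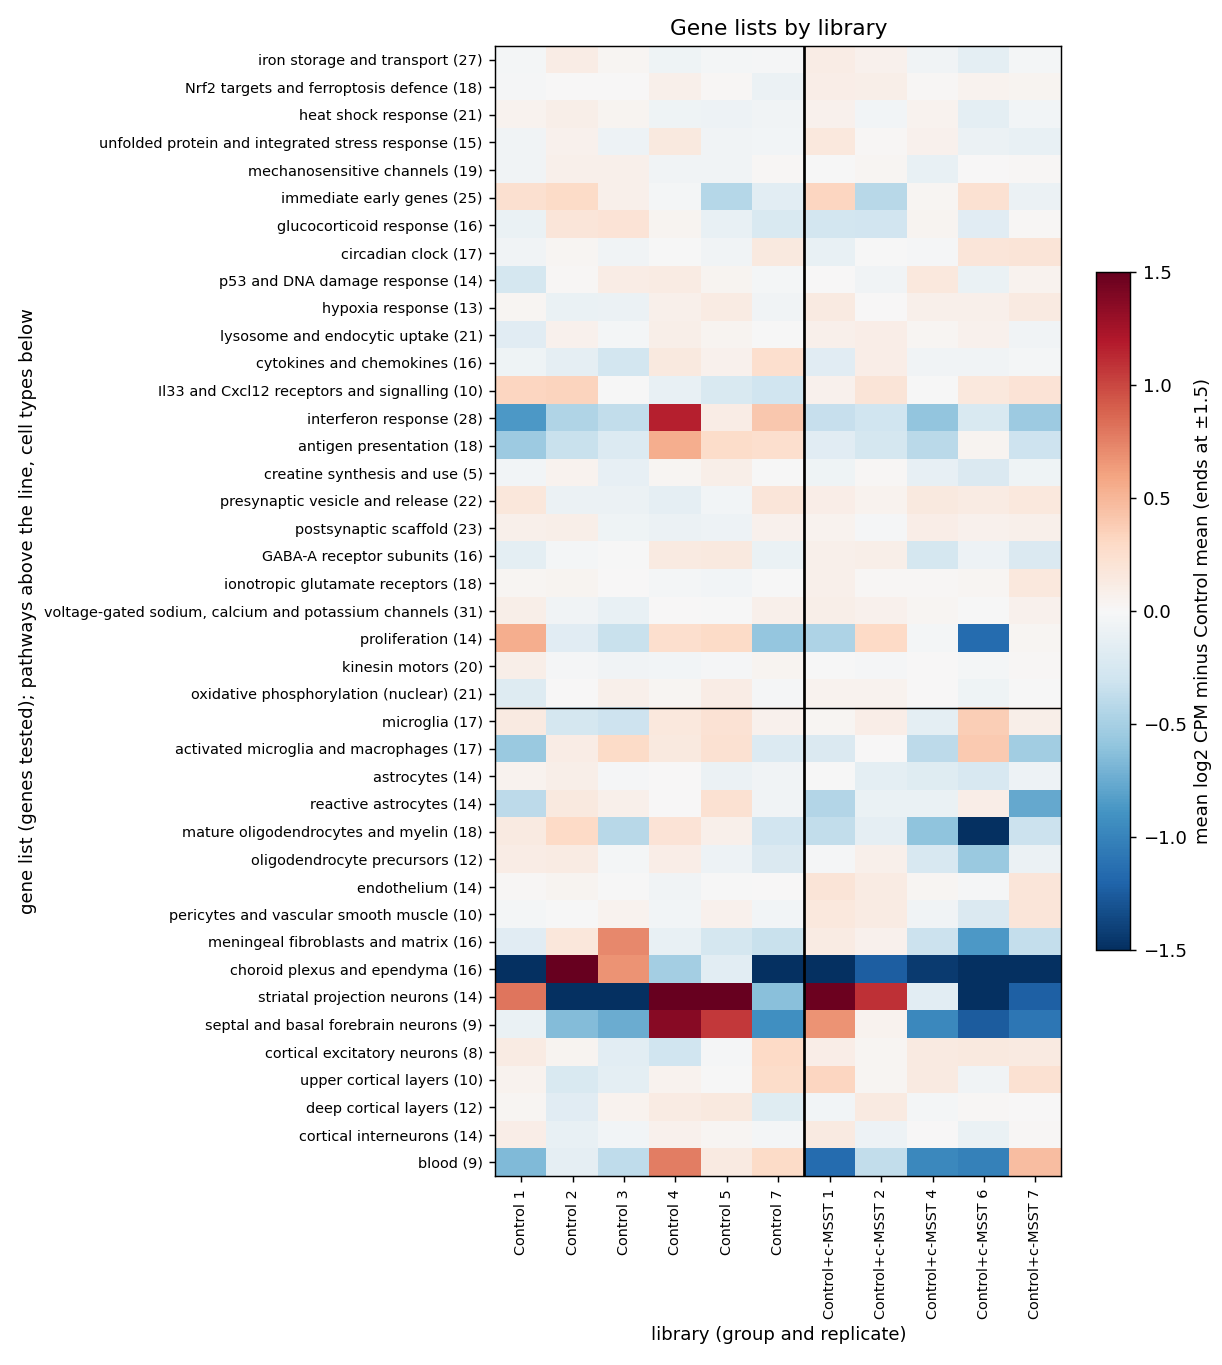
Each row is a gene list (number of genes tested in brackets) and each column a library; colour gives the mean log2 CPM of the list minus its Control mean, with colours ending at ±1.5. Most pathway rows are pale in both groups, while interferon genes stand out in Control replicate 4, choroid plexus genes in Control replicate 2 and myelin genes in Control+c-MSST replicate 6. Striatal scores (-2.13 to 1.72) and choroid plexus scores (-2.97 to 3.29) pass the colour limits in libraries of both groups.

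Interferon-stimulated genes lay lower with c-MSST in 27 of 28 cases, and none was called. The list's median was -0.59 and 9 members had an unadjusted p under 0.05 in that direction, against 8.7% of all genes. The pattern was not common to the Control mice. The list's score, the mean log2 CPM relative to the Control mean, was 1.17 in Control replicate 4 and between -0.86 and 0.40 in the other 5 Control libraries. The treated libraries had scores from -0.59 to -0.23, within the Control range. Without Control replicate 4 the median was -0.29, and without Control replicates 2 and 3 together it was -0.79, with all 28 lower and none called. Xaf1 and Usp18, the latter a protease that removes ISG15, had the smallest p (log2 fold change -0.68, SE 0.21, adjusted p = 0.124 for Xaf1, and log2 fold change -1.01, SE 0.33, adjusted p = 0.139 for Usp18).

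Interferon genes are known for a promoter element bound by a complex that holds STAT2 and IRF9. The letters GAAANNGAAA, searched on both strands (TTTCNNTTTC on the other), occur in the 250 bases before the start in 978 of 32851 RefSeq promoters (2.98%) and in 10 of 24 promoters of the interferon list, from 10 of the 20 members with an entry. Stretches from 4 of these, 60 bases each on the plus strand of GRCm38.p6, are shown because genes that share the letters differed in their values, with matched letters in capitals.
Stat2, chr10:128270251-128270310: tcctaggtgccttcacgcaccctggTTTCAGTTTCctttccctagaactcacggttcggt
Ifit3, chr19:34583382-34583441: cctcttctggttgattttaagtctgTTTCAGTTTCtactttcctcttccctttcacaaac
Gbp3, chr3:142559980-142560039: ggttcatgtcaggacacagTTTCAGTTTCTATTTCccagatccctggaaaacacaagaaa
Gbp2, chr3:142620579-142620638: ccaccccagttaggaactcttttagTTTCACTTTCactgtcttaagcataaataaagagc

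The match begins 222, 122, 39 and 59 bases before the start of Stat2, Ifit3, Gbp3 and Gbp2. Gbp3 holds a further match that overlaps it, from 45 bases before the start, and Ifit3 one outside the stretch shown, from 156 bases before it. These 4 had the highest mean CPM in Control of the 10 members with a match, a rule set after the values were seen. The rule favours members that are high in Control, so their lower values with c-MSST are a description. Gbp2, an interferon-induced GTPase, stood at 2.64 to 20.8 CPM (median 4.298) in Control and at 2.31 to 3.94 CPM with c-MSST. Gbp3, of the same family, reached 22.4 CPM and Ifit3, an antiviral RNA-binding protein, 28.97 CPM. All 3 maxima were in Control replicate 4. Their log2 fold changes of -1.21, -1.10 and -0.80 had adjusted p of 0.204, 0.233 and 0.306. Stat2, a signal transducer of the same response, stood at 34.7 to 44.6 CPM in Control and 36.1 to 44.00 CPM with c-MSST (log2 fold change 0.02, adjusted p = 0.931).

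Antigen presentation genes, many of them interferon-responsive, lay lower in 15 of 18 cases with none called. B2m, the light chain of class I molecules, stood at 48.3 to 104 CPM (median 78.8) in Control and 51.1, 47.9, 43.9, 52.7 and 45.5 CPM with c-MSST. Its Control maximum was that of replicate 7, and the groups overlapped (log2 fold change -0.62, SE 0.16, adjusted p = 0.0831). Tap2, a subunit of the peptide transporter, was the next by p (log2 fold change -0.32, adjusted p = 0.166). B2m passed when Control replicates 2 and 3 were left out together (log2 fold change -0.84, adjusted p = 0.00413, edgeR) and with DESeq2 (log2 fold change -0.63, adjusted p = 0.00693). The list's median of -0.28 became -0.14 without Control replicate 4 and -0.34 without Control replicates 2 and 3.

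Myelin genes lay lower with c-MSST in 18 of 18 cases, 17 of them at an unadjusted p under 0.05 (8.7% of all genes), and none was called. The median was -0.55 and the summed level ran from 2760.0 to 4834 CPM in Control and 1125 to 3409 CPM in Control+c-MSST. Mbp, myelin basic protein, stood at 1123 to 1946 CPM (median 1744) in Control and 1203, 1341, 1011, 446 and 1318 CPM with c-MSST (log2 fold change -0.61, SE 0.22, adjusted p = 0.176). Replicate 6 was the lowest treated library, and the groups overlapped. Ermn, a cytoskeletal protein of myelinating cells, was nearest to the threshold (log2 fold change -0.80, SE 0.21, adjusted p = 0.0854), before Gjc3, a gap junction protein of oligodendrocytes (log2 fold change -0.45, adjusted p = 0.116). The median was -0.37 without replicate 6 and -0.27 with the 3 tissue scores. Il33 and Gatm, both called and lower, are known to be expressed by oligodendrocytes, and the part of oligodendrocyte RNA in their values was not tested. Oligodendrocyte precursor markers had 4 of 12 higher and 8 lower, with Vcan and Olig2 at -0.31 and -0.29.

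Astrocyte and microglial genes were not called. All 14 astrocyte markers lay lower, with log2 fold changes of -0.35 to -0.04 and a median of -0.10, among them the water channel Aqp4 (log2 fold change -0.35, adjusted p = 0.181). With FPKM values 5 of these markers lay higher and 9 lower, with a median of -0.02. Gfap, the filament of reactive astrocytes, stood at 88.9 to 267 CPM (median 122) in Control and 107, 84.3, 64.5, 144 and 68.3 CPM with c-MSST (log2 fold change -0.68, SE 0.28, adjusted p = 0.246). The highest treated library lay below the highest Control library, and the lowest treated library below all Control libraries. Without Control replicates 2 and 3 the value was -0.19. Of 14 reactive astrocyte genes, 3 lay higher and 11 lower, with the ferroxidase gene Cp having the smallest p (log2 fold change -0.26, adjusted p = 0.211). Of 17 microglial markers, 10 lay higher and 7 lower, with Cx3cr1, the fractalkine receptor, at 46.1 ± 4.496 and 49.98 ± 5.18 CPM (log2 fold change 0.12, SE 0.07, adjusted p = 0.452) and Aif1, which encodes Iba1, at 2.33 ± 0.520 and 2.83 ± 0.730 CPM (log2 fold change 0.28, SE 0.20, adjusted p = 0.517). The smallest p of that list was that of Gpr34, a lysophospholipid receptor (log2 fold change 0.20, adjusted p = 0.336). Activated microglia and macrophage genes had 6 of 17 higher and 11 lower, with the secreted phosphoprotein Spp1 at -0.81 (adjusted p = 0.0935), Apoe at -0.18 (adjusted p = 0.157) and Cd68 at -0.10 (adjusted p = 0.788).

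Vascular markers lay slightly higher and markers of the ventricle wall and septum lower. Of 14 endothelial genes, 9 lay higher, and Flt1, a VEGF receptor, did not overlap between groups at 87.5 ± 7.02 and 107 ± 9.26 CPM (log2 fold change 0.29, SE 0.09, adjusted p = 0.117). Esam, an adhesion molecule of endothelial junctions, was the member with the smallest p (log2 fold change 0.31, adjusted p = 0.105). Notch3, a receptor of mural cells, likewise did not overlap (log2 fold change 0.29, SE 0.08, adjusted p = 0.0929), and the pericyte gene Rgs5 came next (log2 fold change 0.23, adjusted p = 0.140), with 6 of 10 pericyte and smooth muscle genes higher. The 16 choroid plexus and ependymal markers all lay lower, with a median of -2.51 that was -0.73 without Control replicates 2 and 3, and Foxj1, the regulator of motile cilia, at 6.21 ± 2.300 and 3.19 ± 1.02 CPM (log2 fold change -0.96, SE 0.25, adjusted p = 0.0832). All 9 septal and basal forebrain markers lay lower as well. Their median of -0.66 was -0.34 (3 higher, 6 lower) without Control replicate 4. With the 3 tissue scores it was 0.03, but the mean of these markers is 1 of those scores, so that fit cannot test them. The smallest p were those of Zic4 (log2 fold change -1.37, adjusted p = 0.0912) and the channel gene Trpc4 (log2 fold change -0.66, adjusted p = 0.165). Zic1, a transcription factor of septal neurons, stood at 10.1 to 37.3 CPM (median 23.1) in Control and 16.2, 12.7, 9.65, 11.4 and 11.97 CPM with c-MSST (log2 fold change -0.94, SE 0.39, adjusted p = 0.249). Its high Control values were those of replicates 2, 4 and 5. With the 3 tissue scores, 1 of which includes Zic1 itself, its sign turned. Meningeal fibroblast genes lay lower in 14 of 16 cases, led by Dcn, a matrix proteoglycan that reached 53.9 CPM in Control replicate 3 (log2 fold change -1.35, SE 0.50, adjusted p = 0.196), and followed by Igfbp2 (log2 fold change -0.35, adjusted p = 0.324). Without Control replicates 2 and 3 that list had 6 higher and 10 lower, and Dcn was at -0.06 and Igfbp2 at -0.16. Striatal markers had 1 higher and 13 lower, a median of -0.21 that turned to 0.16 without Control replicate 4 and 0.04 without Control+c-MSST replicate 6 and changed sign with FPKM values, and Drd2, the dopamine D2 receptor, at 2.69 to 68.5 CPM (median 23.1) in Control and 57.99, 40.5, 15.5, 1.303 and 5.76 CPM with c-MSST. The smallest p of the striatal list were those of Gpr6 (log2 fold change -0.36, adjusted p = 0.828) and the enkephalin gene Penk (log2 fold change -0.30, adjusted p = 0.885). Gpr6 was at -0.08 without Control replicate 4. Without Control replicates 2 and 3 together, the comparison called 16 genes, 9 of them among the 54.

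Neuronal layer and interneuron markers completed the lists. Upper layer genes had 7 of 10 higher and 3 lower, with Otof, the calcium sensor otoferlin, at 50.4 ± 11.3 and 76.02 ± 17.2 CPM (log2 fold change 0.59, SE 0.19, adjusted p = 0.139) and Rasgrf2 at 0.22 (adjusted p = 0.297). Deep layer genes split evenly, 6 higher and 6 lower, with Rprm at 0.30 and the subplate marker Cplx3 at -0.33, neither called, and a median of -0.06 that changed sign with FPKM values and limma voom. Interneuron markers had 7 higher and 7 lower, with the neuropeptide Vip at 0.33 and the calcium buffer Calb2 at -0.62, neither called. Calb2 was at -0.12 without Control replicates 2 and 3. Proliferation genes had 1 higher and 13 lower at low levels, with Mcm2, a subunit of the replication helicase, at 6.95 ± 1.14 and 5.68 ± 0.628 CPM (log2 fold change -0.29, SE 0.12, adjusted p = 0.242), and the marker Mki67 at -0.52 (adjusted p = 0.406). In all, 7 of the 667 tested genes on the 41 lists were called, against 54 of all 16417 genes tested (0.329%). The lists were written with earlier results of these data known, so this count was not tested against that share.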

How the data were processed

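RNA-seq libraries of the left prelimbic cortex (6 Control, 5 Control+c-MSST, 4 SCZ and 4 SCZ+c-MSST mice) were grouped by their titles. The authors deposited estimated counts per gene, all whole numbers, and FPKM values scaled to gene length and depth, per the file headers. The submitters' processing notes list StringTie 1.3.5, STAR 2.7.7a, fastp 0.19.5 and Picard 2.18.29 and the build mm10, and the kit was stranded per the labels' protocols. The annotation, and whether strand was used in counting, are not given in the sources used here. Library totals of the 11 libraries compared ran from 50140626 to 72866386 counts. The table lists 20938 genes, and 11 names that had become dates in the FPKM table were left out.

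Counts were tested with edgeR 4.0.16 in R 4.3.3. The function filterByExpr kept 16417 genes, TMM factors scaled the libraries, and all 19 entered 1 quasi-likelihood fit with 1 term for each group, so that the groups share the estimate of spread. Benjamini-Hochberg adjustment ran over all genes tested, and genes under 0.05 are called. The script was tested on simulated data. Alternatives were DESeq2 1.42.0, its size factors, upper-quartile scaling, limma 3.58.1 voom, other filters, limma on log2(FPKM + 1) and log2(FPKM + 0.1), the replicate number as a block, tissue marker scores as covariates, fewer groups and each library left out. Leaving out libraries of the MK-801 groups was added after seeing the data. Every called gene is named, except that a few genes are not reported here, with the 12 of smallest p per direction at a mean of at least 1 CPM given in each library. For each of 41 lists every called member is named or else the 2 members with the smallest p at that level, besides some anchor genes. Comparisons, members and lists were chosen with earlier results of these data known.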

Additional observations from a re-analysis of the deposited data

Results flagged for a closer look

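Within each group, the highest or lowest library was compared with the rest by Dixon's rule for 362 sets of values, namely every gene named, every list score and the library total in Control and in Control+c-MSST, and 21 stood apart. Chance gives about 1 in 20 groups, or 18.1 of these, a number close to the 21 found.

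Control+c-MSST replicate 6, without which no gene was called by edgeR, held 6 of the 21. It had 112.8 CPM of Tmem121b (the other treated libraries 98.64 to 102.2), 139.5 CPM of Tmem94 (119.5 to 125.2) and 12.42 CPM of the CXCL12 receptor Ackr3 (10.57 to 10.82). It also had 43.94 CPM of Ndrg1 (68.99 to 74.86), 505.8 CPM of the ferritin gene Fth1 (699.2 to 737.2) and 10.43 CPM of Cd68 (6.633 to 7.377). Replicate 1 had 239.8 CPM of Arhgdia (229.7 to 231.6) and 0.03363 CPM of Klf1 where the others had none, which is 2 counts. Replicate 2 had 67.62 CPM of Jund (76.33 to 78.51). Replicate 7 had 70.74 CPM of Hba-a1 (at most 0.02753) and 3.297 CPM of Hmox1 (4.418 to 4.824). In replicate 4 the score of mechanosensitive channel genes was -0.11 (-0.006 to 0.029).

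Among Control libraries, replicate 3 had 5.562 CPM of Ccdc80 (6.839 to 7.604), 965.0 CPM of Arf3 (1062 to 1119), 13.95 CPM of the endothelial gene Esam (11.4 to 12.28) and 53.89 CPM of the meningeal gene Dcn (6.156 to 18.11). Replicate 7, without which the count of called genes rose to 314, had 194.2 CPM of Tnpo2 (180.9 to 185.5), 72.55 CPM of Ndrg1 (91.06 to 101.5) and 189.0 CPM of Cacna1g (124.7 to 146.8). Replicate 2 had 1607 CPM of Ttr (0.2893 to 149.6) and 37.97 CPM of Igfbp2 (20.73 to 23.39).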

How the results depend on the processing

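The count of 54 called genes stayed within 1.5 times under DESeq2 size factors (55), upper-quartile scaling (67), no filter (39) and a filter at 1 CPM (80). It was 571 with DESeq2, 25 with limma voom, 259 on log2(FPKM + 1), 250 on log2(FPKM + 0.1), 240 on log2(FPKM + 1) without a filter, 0 with 3 tissue scores, 0 in a fit of only the 11 libraries and 16 without Control replicates 2 and 3. Leaving out 1 of the 11 libraries gave 0 to 314, and leaving out 1 library of the MK-801 groups, an alternative chosen after seeing the data, gave 12 to 33. In MK-801 mice the count of 0 became 62 with DESeq2, 46 with limma voom, 2, 2 and 1 on the 3 FPKM scales in the order above, and 0 to 2 with 1 library left out. The interaction count of 0 became 40 with DESeq2 and 0 to 1 with 1 library left out. The causes of these changes were not tested.

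With the replicate number as a block, 0 genes were called by edgeR in saline mice (1665 at an unadjusted p under 0.05, smallest adjusted p 0.0823), and 0 in MK-801 mice and for the interaction. The numbers are not shown to pair the samples, since the deviations of same-numbered pairs in saline mice correlated at -0.00273, -0.00671, -0.0218 and 0.139.

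Of 1725 values of called genes under an alternative, 900 were no longer past the threshold and none changed sign. Of the values of uncalled named genes under an alternative, 79 passed the threshold and 48 changed sign. With DESeq2 the adjusted p was 0.00507 for Chac1, 0.00823 for Slc17a7, 0.0231 for Trf, 0.0476 for Mbp and 6.78e-07 for Ttr. Genes given above as not called were so in the edgeR fit of all 19 libraries, and not all of them in every fit. The 13 genes that changed sign were all uncalled. On the 3 FPKM scales in the order above the log2 differences were 0.01503, 0.01555 and 0.01503 for Arc, 0.02568, 0.02814 and 0.02568 for Fos, 0.04859, 0.07035 and 0.04859 for Hspa1a, and 0.003329, 0.003225 and 0.003329 for Tfrc, with Penk at 0.01261 on log2(FPKM + 0.1). With the block they were 0.08966 for Drd2, 0.0409 for Gabre, 0.008446 for Gpr6, 0.02008 for Hspa1a, 0.17 for Penk and 0.08498 for Tfrc. With the tissue scores they were 0.009677 for Calb2, 0.8672 for Gabre, 0.01331 for Igfbp2, -0.05781 for Rasgrf2, -0.06602 for Vip and 0.1229 for Zic1, which is itself part of the septal score. Hspa1a stood at 0.09396 with limma voom. Without Control replicates 2 and 3 they were 0.1247 for Fos, 0.2419 for Gabre and 0.06919 for Hspa1a. With 1 of the 11 libraries left out, values ran from -0.1954 to 0.0681 for Arc, -0.9582 to 0.07008 for Drd2, -0.1813 to 0.1609 for Fos, -0.827 to 0.233 for Gabre, -0.09356 to 0.04034 for Hspa1a, -0.8081 to 0.0734 for Penk and -0.131 to 0.03617 for Tfrc, and without a change of sign from -0.7424 to -0.3013 for Calb2, -0.7441 to -0.07911 for Gpr6 and -0.4444 to -0.1848 for Igfbp2. Of the named genes, 28 uncalled ones moved by over 1.5 times or changed sign with 1 of the 11 libraries left out, and 0 of the 54 called ones did. Since the 54 were called in these same libraries and some uncalled genes lay near 0, this contrast is no measure of stability.

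Klf1, at 0 to 2 counts in the treated libraries, is limited by depth, since 3 counts equal 0.0412 to 0.0598 CPM. The calls also rest on a spread pooled over 4 groups.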
